A study of Saccharomyces cerevisiae with 20 samples.

Results

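The ORFs near the chromosome ends of *Saccharomyces cerevisiae* were followed in colonies of 5 overexpression strains. ORFs were taken as subtelomeric when they lay within 20 kb of the outermost annotated feature of chromosomes I to XVI. This window held 310 of the 6575 ORFs in the count table. Of these, 185 had a median of at least 1 CPM (counts scaled to the ORF total of each library) over the 20 libraries, and 6 of the 185 were left out by name. The names left out were *YAR071W*, *YHR215W*, *YGL258W*, *YHL047C*, *YCR098C*, *YHL040C*, *YGL256W*, *YGL255W*, *YOL158C*, and *YOR387C*, of which 4 lie outside the window. The remaining 179 ORFs are the members described here, out of 5772 ORFs tested and 12131 features counted. Just inside the level limit were *PAU6* (median 1.01 CPM) and *YMR326C* (1.04 CPM), and just outside it were *PAU9* (0.961 CPM) and *YMR317W* (0.958 CPM).

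The libraries came from F45, a haploid strain that forms fluffy colonies, of genotype MATa ho∆0::hphMX6 SPS2:EGFP:natMX4 with an unmapped serine auxotrophy. Each strain carried 1 additional gene, *TOS8*, *SFL1*, *HEK2*, *SAN1*, or *ROF1* (*YHR177W*), under its native promoter on a low-copy MoBY plasmid kept by G418. All of these plasmids reduced the fluffy structure. The study graded the reduction as very strong for *SFL1* and *HEK2*, intermediate for *SAN1* and *ROF1*, and weak for *TOS8*. Colony structure therefore differed between the groups of the first and second comparisons below, and its part in them was not tested. There were 4 samples per strain, each pooled from 3 to 5 colonies grown for 4 days at 30° on YPD with 2% glucose, and stranded mRNA libraries were made from them. No library of F45 with an empty plasmid is among the 20, so every difference below is between overexpression strains, and p-values measure the spread between such pooled samples.

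Yeast subtelomeres lie between the telomeric repeats and the gene-dense interior. They carry gene families shared between ends, among them the Y′ helicase genes (*YRF1*), the *COS* genes of membrane protein sorting, and genes for the use of alternative sugars, vitamins, and metals. The Sir proteins spread inward from telomeres and can silence genes near them, and the general repressors Tup1 and Cyc8 and the Hda1 deacetylase also act on subtelomeric genes. Many of these genes are known to respond to nutrients and stress.

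The libraries held 6027147 to 35027485 counts (median 16474114), and members took 1.42% of the ORF counts. In its own strain, each plasmid gene averaged 2.43 to 4.52 times its mean in the other strains, without overlap between libraries. The 6 **a**-cell markers were *STE2* (119 to 273 CPM over the libraries), *MFA2* (126 to 410), *STE6* (38.2 to 59.5), *MFA1* (27.2 to 54.3), *AGA2* (16.6 to 37.5), and *BAR1* (8.09 to 32.3). Of the α-cell genes, *MF(ALPHA)1* was at 1.60 to 5.98 CPM, *MF(ALPHA)2* at 0.285 to 1.33 CPM, and *MATALPHA1* at no more than 10 counts, while *STE3* (17.4 to 34.5 CPM) and *SAG1* (46.8 to 74.8 CPM) overlapped the range of the **a**-cell markers. *HMRA1* had 0 counts in each library, which allows up to 0.503 CPM in the smallest, and *HMLALPHA1* had no more than 4 counts. *MATALPHA2* (34.9 to 50.5 CPM), *HMLALPHA2* (34.1 to 51.7 CPM), and *HMRA2* (29.5 to 47.8 CPM) lay within the range of the **a**-cell markers. RNA was taken from whole colonies, so fewer cells expressing a gene and less RNA per cell cannot be told apart.

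The members lay on all 32 chromosome ends, 2 to 10 on each (median 6), at a median distance of 11758 bp from the end. Their levels were low and fell toward the end. Distances are those of the S288c reference, and whether each ORF is present at that place in F45 was not tested. *BDS1* and *YIR042C*, for example, had a median of 0 CPM. Low expression and absence from F45 therefore cannot be told apart for ORFs under the limit. The median member had 21.2 CPM, against 53.4 CPM for all ORFs tested. Within 5 kb of an end 31.6% of ORFs reached 1 CPM, and this share was 54.4% at 5 to 10 kb, 71.1% at 10 to 15 kb, and 87.7% at 15 to 20 kb, against 86.1% at 20 to 40 kb and 89.3% farther in. Among ORFs past the limit, the median level per length was 6.59, 11.0, 18.2, and 24.4 CPM per kb in these bins of 5 kb from the end inward, against 45.1 CPM per kb at 20 to 40 kb and 43.0 CPM per kb beyond. The same order of the 4 bins was seen within each of the 5 strains. In the *TOS8* strain the medians were 5.36, 9.06, 16.2, and 25.6 CPM per kb.

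A few members stood far above this level. *HXK1*, which encodes hexokinase 1, was highest at 2402 CPM per kb. Next were *CHA1* (896 CPM per kb), the serine and threonine deaminase, *COX14* (788 CPM per kb), a cytochrome *c* oxidase assembly factor, *YNR071C* (627 CPM per kb), an ORF annotated as an aldose 1-epimerase family protein, and *MSC1* (555 CPM per kb). *CHA1*, *COX14*, and *MSC1* were the members of highest expression that did not pass the test across the 5 strains (adjusted p of 0.164, 0.0217, and 0.0139).

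Reads cannot always be placed on a single member. Of the 179 members, 74 have another ORF that is at least 95% identical over at least 80% of the length, and 105 have none. The deposited counts had no filter on mapping quality, so values of such copies are not independent of each other. A further limit is that 15 members, *HXT16* and *HXK1* among them, overlap a feature on the same strand.

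Across the 5 strains, 120 of 179 members passed a false discovery rate (FDR) of 0.01 by the quasi-likelihood F-test of edgeR, adjusted after Benjamini and Hochberg over all ORFs tested (67%, against 58.5% of all ORFs). The first question was how the *TOS8* strain, which overexpresses a homeodomain transcription factor, differed from the mean of the other 4 strains. Members were lower in the *TOS8* strain, and most so in the outer 10 kb. Of the 179, 81 were lower (45.3%, against 23.7% of all 5772 ORFs) and 26 were higher (14.5%, against 24.5%), so 107 differed (59.8%, against 48.3%). The median log2 fold-change of members was −0.20, against −0.01 over all ORFs. Normalized CPM of the 4 *TOS8* libraries lay below all 16 others for 31 members (17.3%, against 9.96% of all ORFs) and above all 16 for 8 (4.47%, against 11.1%).

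The shift was seen in each library. After subtraction of each ORF's mean over the 20 libraries, the median member stood at −0.14, −0.11, −0.22, and −0.20 (log2 CPM) in the 4 *TOS8* libraries. It stood at 0.04 to 0.10 in the *SFL1* libraries, 0.09 to 0.14 in the *HEK2* libraries, −0.03 to 0.10 in the *SAN1* libraries, and −0.04 to 0.07 in the *ROF1* libraries. No other library was as low as the highest *TOS8* library. Medians over all tested ORFs stayed between −0.01 and 0.01 in the same libraries.

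**Figure D1:**
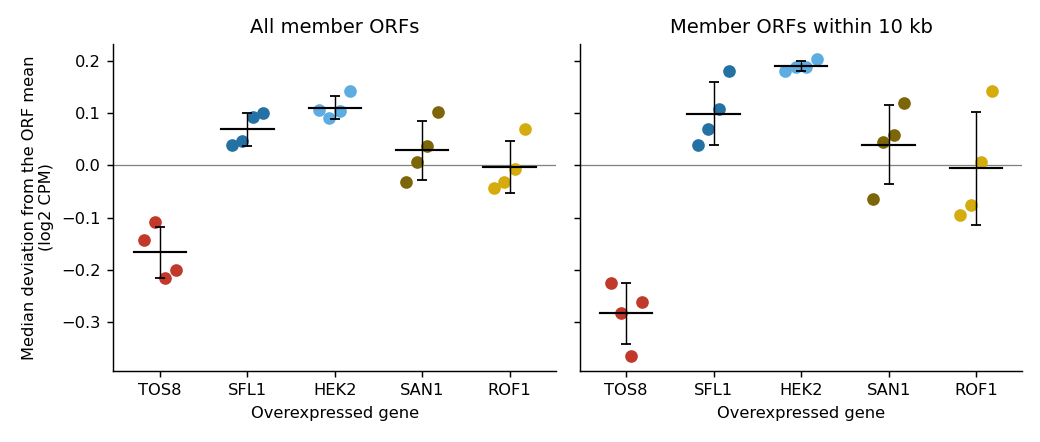
Median deviation of member ORFs from their mean over the 20 libraries (log2 CPM) in each library, by strain, for all 179 members (left) and the 71 within 10 kb of an end (right). Points are libraries, and lines and bars give the mean ± SD (n = 4). The *TOS8* libraries lie between −0.22 and −0.11 on the left and below all others in both panels.

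The share of lower members depended on the distance from the end in the S288c reference. Within 5 kb, 15 of 24 members were lower in the *TOS8* strain (62.5%) and 0 were higher, with a median log2 fold-change of −0.31. Only 6 of these 24 have no near-identical ORF, and 3 of the 6 were lower, so the share rests largely on copies that share reads. At 5 to 10 kb, 34 of 47 were lower (72.3%) and 4 higher, with a median of −0.40. Of the 24 there with no near-identical ORF, 14 were lower (58.3%). At 10 to 15 kb, 19 of 53 were lower (35.8%) and 8 higher, with a median of −0.15. At 15 to 20 kb, lower (13 of 55, 23.6%) and higher members (14) were about as frequent as in the whole table, and the median was −0.0011. ORFs at 20 to 40 kb (29.2% lower, 24.6% higher) and beyond 40 kb (22.7% lower, 24.9% higher) lay close to this last bin. Among members, Spearman's rho of distance and log2 fold-change was 0.33 (179 ORFs that share libraries and in part sequence).

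**Figure D2:**
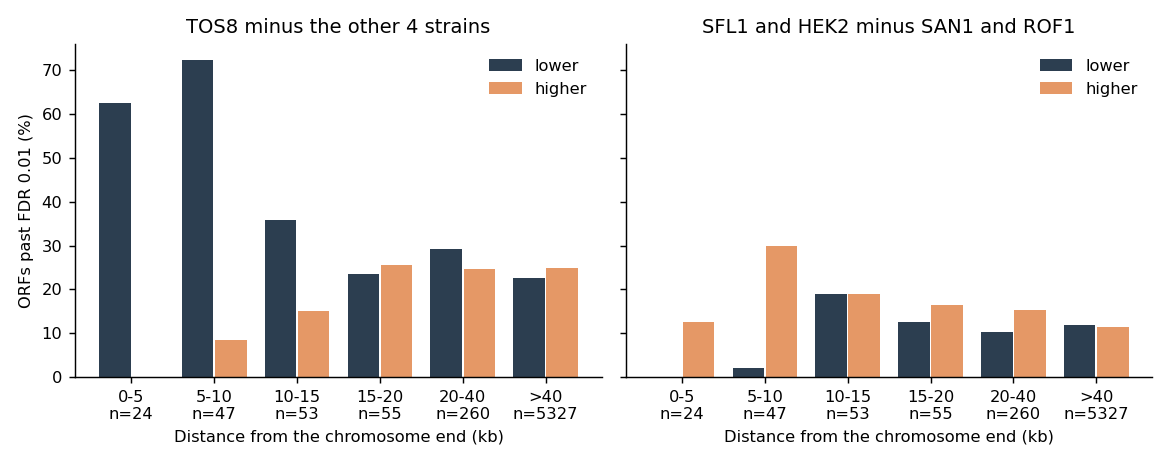
Share of ORFs past an FDR of 0.01 (%), lower (dark) or higher (light), by distance from the chromosome end in kb, with the number of ORFs under each bin, for the *TOS8* strain minus the other 4 strains (left) and for the *SFL1* and *HEK2* strains minus the *SAN1* and *ROF1* strains (right). The 4 bins up to 20 kb hold members and the last 2 hold the other ORFs. On the left, 62.5% and 72.3% of members in the outer 2 bins were lower. Near-identical copies are counted separately.

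The decrease was also seen among members without a near-identical ORF and within classes of level. Of the 105 members with no near-identical ORF, 39 were lower (37.1%), and within 10 kb of the end it was 17 of 30 (56.7%), with a median log2 fold-change of −0.35. Some of these share shorter stretches. Of the 96 members with no match of 100 bp or more at 95% identity, 35 were lower (36.5%), and 15 of 25 within 10 kb. When near-identical ORFs were summed to a single row, 51 of 127 rows were lower (40.2%, against 24% of all rows) and 21 were higher. At 10 to 100 CPM, 51 of 96 members were lower (53.1%, against 22.8% of all ORFs of that level). At 1 to 10 CPM it was 17 of 60 (28.3%, against 12.2%), and above 100 CPM it was 13 of 23 (56.5%, against 28.9%).

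Lower members lay on most ends. The median member was below 0 on 27 of the 32 ends, and 30 ends held at least 1 lower member. With 23.7% of all ORFs lower and a median of 6 members per end, many ends would hold a lower member at that share alone. Near-identical copies share reads between ends, so the ends are not separate measurements. Lower members outnumbered higher ones on 24 ends, and the reverse held on 3. The lowest median was that of the right end of chromosome XIV (−0.98, 5 members), where *YNR071C*, *HXT17*, and *MAN2* lie side by side. The highest was that of the left end of chromosome XVI (0.19, 6 members).

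The genes for sugars and polyols showed the largest decrease. These are the hexose transporter paralogs *HXT15*, *HXT16*, and *HXT17*, which also carry polyols, the sorbitol dehydrogenases *SOR1* and *SOR2*, and the mannitol dehydrogenase *MAN2*. All 6 measured members of this list were lower in the *TOS8* strain, with log2 fold-changes of −0.995 to −0.80. *YNR071C* fell more than any other member. It had 223, 253, 202, and 294 CPM in the *TOS8* libraries, against 597 to 943 CPM in the other 16 (median 720, log2 fold-change −1.60, SE 0.09, adjusted p = 5.98e-11). The groups did not overlap, and the lowest other library had more than the highest *TOS8* library.

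Next to it, *HXT17* had 74.2, 72.2, 60.7, and 74.9 CPM in the *TOS8* libraries, against 91.1 to 197 CPM in the others (median 144, log2 fold-change −0.995, SE 0.07, adjusted p = 9.9e-10). *MAN2*, the next gene toward the end, had 290, 321, 227, and 300 CPM, against 377 to 716 CPM (median 570, log2 fold-change −0.98, SE 0.09, adjusted p = 3.45e-08). All 3 genes of this stretch were named by a rule that requires each *TOS8* library to lie below every other library. *HXT17* (96.5%) and *MAN2* (98.9%) each have a near-identical ORF on chromosome V, and *HXT16* is 99.9% identical to *HXT15*. *HXT16* had 16.2, 16.7, 16.3, and 17.4 CPM in the *TOS8* libraries, against 22.0 to 42.4 CPM (median 30.1, log2 fold-change −0.89). *HXT15* had 22.5, 18.6, 18.3, and 21.4 CPM, against 24.7 to 46.2 CPM (median 34.2, log2 fold-change −0.80). *SOR1* (−0.85) and its near copy *SOR2* (−0.86) were at 5.37 to 8.17 CPM in the *TOS8* libraries and 8.32 to 15.5 CPM in the others.

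The bases upstream of these genes are shown because neighbouring genes and copies on other chromosomes fell together. The windows run from base 300 to base 101 before the start codon, on the strand of the gene, in the S288c reference (build R64, RefSeq), not F45. Capitals mark matches to the MIG1-type GC box, a binding sequence of glucose repressors (GGGG preceded by GC, GT, CC, or CT), or to the TATA box (TATAAAAA, TATAAAAG, TATAAATA, TATAAATG, TATATAAA, TATATAAG, TATATATA, or TATATATG), both strands searched.
*YNR071C*, chrXIV:771569-771768, minus strand: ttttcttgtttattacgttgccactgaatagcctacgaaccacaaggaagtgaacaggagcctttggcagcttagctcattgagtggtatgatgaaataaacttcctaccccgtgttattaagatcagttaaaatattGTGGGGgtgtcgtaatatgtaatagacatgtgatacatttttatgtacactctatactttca
*HXT17*, chrXIV:772357-772556, plus strand: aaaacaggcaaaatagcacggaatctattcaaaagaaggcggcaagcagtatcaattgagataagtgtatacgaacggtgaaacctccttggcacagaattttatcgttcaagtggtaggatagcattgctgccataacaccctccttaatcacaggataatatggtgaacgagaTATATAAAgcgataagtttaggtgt
*MAN2*, chrXIV:776401-776600, minus strand: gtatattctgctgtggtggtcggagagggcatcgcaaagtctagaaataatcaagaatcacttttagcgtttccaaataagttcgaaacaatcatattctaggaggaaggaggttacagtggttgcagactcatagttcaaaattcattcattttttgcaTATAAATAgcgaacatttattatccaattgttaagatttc
*HXT16*, chrX:732140-732339, plus strand: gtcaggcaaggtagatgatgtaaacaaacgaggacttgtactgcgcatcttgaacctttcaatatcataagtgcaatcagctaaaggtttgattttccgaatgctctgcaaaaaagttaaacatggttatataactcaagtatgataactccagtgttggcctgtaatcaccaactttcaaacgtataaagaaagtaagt
The window of *HXT15* on chromosome IV has the same 200 bases as that of *HXT16*, and those of *SOR1* and *SOR2* are also identical to each other. *YNR071C* and *HXT17* are transcribed away from each other. The 4 windows differ in their matches, with a MIG1-type match in that of *YNR071C*, a TATA match in those of *HXT17* and *MAN2*, and neither in that of *HXT16*. Of the 179 member windows, 14% hold a MIG1-type match, against 10% of those of all ORFs, and 27.4% hold a TATA match, against 28.2%.

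**Figure D3:**
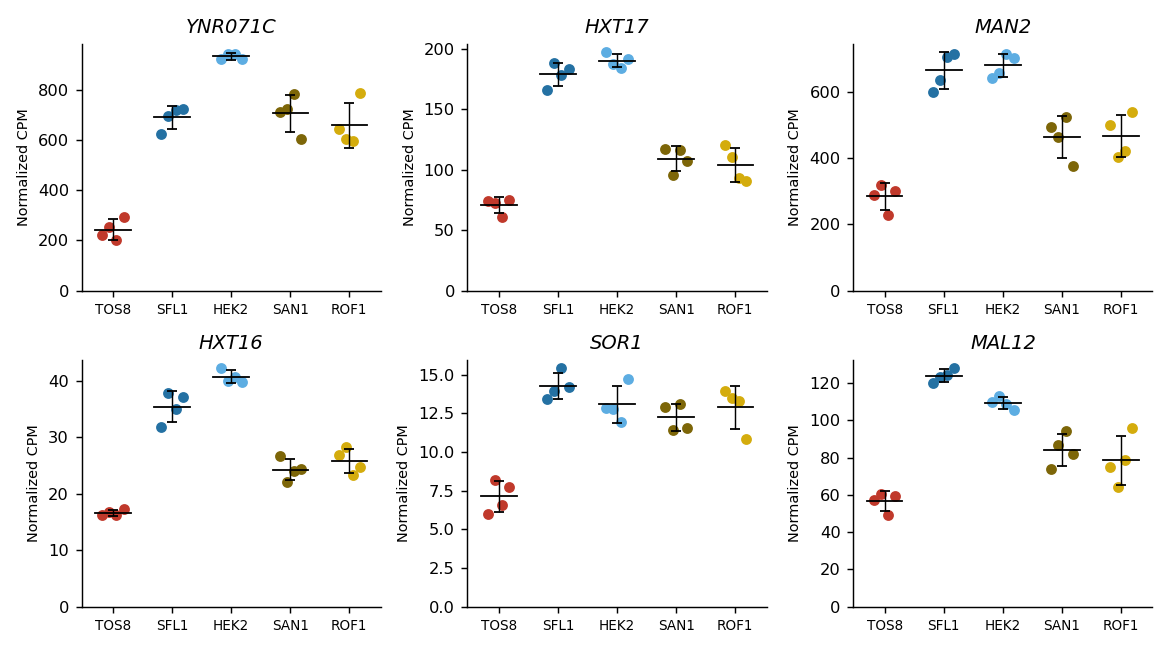
Normalized CPM in each library for *YNR071C*, *HXT17*, *MAN2*, *HXT16*, *SOR1*, and *MAL12* by strain. Points are libraries, and lines and bars give the mean ± SD (n = 4). In all 6 genes the *TOS8* libraries lie below the other 16, which the rule for naming them required. *HXT17* is at 166.3 to 197 CPM in the *SFL1* and *HEK2* strains.

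Of the 9 maltose and isomaltose genes measured, 6 were lower in the *TOS8* strain and 2 were higher. The maltase gene *MAL12* had 57.3, 60.7, 49.0, and 59.5 CPM in the *TOS8* libraries, against 64.4 to 128 CPM in the others (median 101, log2 fold-change −0.78, SE 0.08, adjusted p = 4.81e-08). Its near-identical copy *MAL32* on chromosome II gave −0.75. The maltose permease *MAL31* (−0.38), the permeases *MPH2* (−0.73) and *MPH3* (−0.44), and the *MAL* activator *MAL33* (−0.16) were also lower, and *MAL11* (−0.14, adjusted p = 0.085) did not pass the test. The isomaltases *IMA3* and *IMA4* moved the other way. *IMA3* had 39.6, 39.1, 40.5, and 36.2 CPM in the *TOS8* libraries, against 23.8 to 34.4 CPM (log2 fold-change 0.38, SE 0.06, adjusted p = 1.46e-05). *IMA4*, identical in sequence, gave 0.37, and its libraries overlapped (33.9 CPM in the lowest *TOS8* library, against up to 35.5 CPM in the others).

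Gene families of the outer subtelomere decreased together. Of 10 *COS* genes, 9 were lower in the *TOS8* strain (90%, against 23.7% of all ORFs), with log2 fold-changes of −0.54 to −0.35. These are not separate measurements, because *COS1*, *COS2*, *COS3*, and *COS4* are near-identical, as are *COS5* and *COS7*. Summed to a single row each, the set of 4 gave −0.42 and the pair −0.40. *COS8*, which has no near copy, had 86.0, 96.7, 90.1, and 91.5 CPM in the *TOS8* libraries, against 104 to 148 CPM in the others (median 123, log2 fold-change −0.43, SE 0.05, adjusted p = 1.09e-06). *COS12*, also without a near copy, had 13.9, 19.5, 19.5, and 22.2 CPM, against 24.6 to 30.9 CPM (log2 fold-change −0.54). The exception was *COS9* (−0.07, adjusted p = 0.166), at 82.8 to 90.2 CPM and 80.6 to 104 CPM, which at 15257 bp lies farthest from an end in the family.

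All 8 *YRF1* genes of the Y′ elements were lower, with log2 fold-changes of −0.46 to −0.36. They are nearly identical, so this is close to a single measurement rather than 8. *YRF1-3* had 15.7, 15.4, 14.1, and 15.9 CPM in the *TOS8* libraries, against 16.7 to 24.1 CPM in the others (median 21.8). The near-identical *VTH1* (−0.45) and *VTH2* (−0.50), homologs of a vacuolar sorting receptor, were also lower. Beyond the lists, *IRC7*, a cysteine β-lyase, had a log2 fold-change of −1.05 (adjusted p = 2.47e-05), with 6.81, 7.48, 6.44, and 11.7 CPM against 9.18 to 30.0 CPM, and the groups overlapped by the highest *TOS8* library. Of the 116 members outside every list, 47 were lower and 18 were higher.

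**Figure D4:**
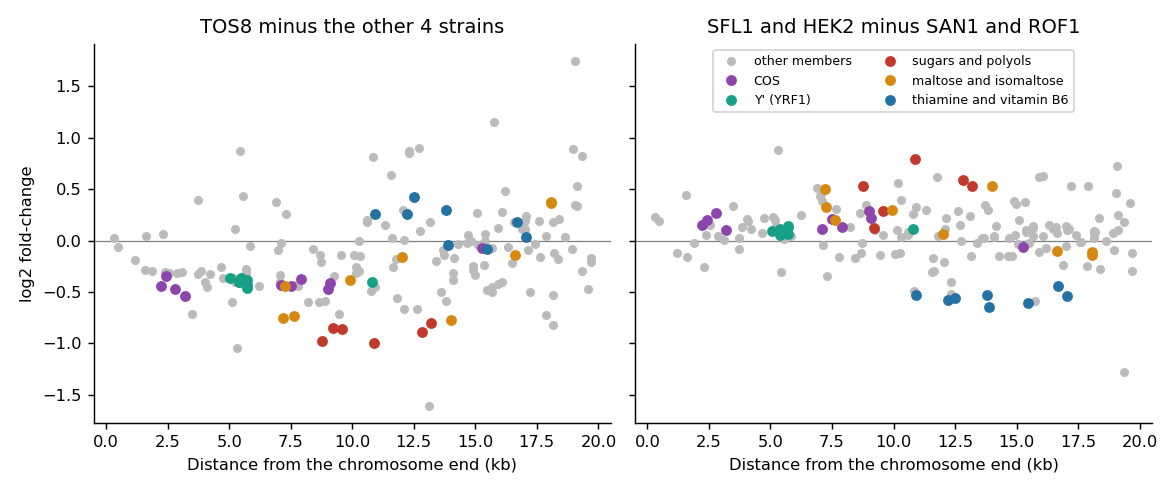
Log2 fold-change of each of the 179 members against its distance from the chromosome end (kb), for the *TOS8* strain minus the other 4 strains (left) and for the *SFL1* and *HEK2* strains minus the *SAN1* and *ROF1* strains (right). Colours mark 5 gene lists. On the left the *COS* genes other than *COS9* and the Y′ genes lie between −0.54 and −0.35, *YNR071C* is the lowest point (−1.60), and *FDH1* is the highest (1.74).

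Of the 26 members higher in the *TOS8* strain, 22 were among the 108 beyond 10 kb (20.4%, against 24.5% of all ORFs). The other 4 were among the 71 within 10 kb (5.63%). *FDH1*, the NAD-dependent formate dehydrogenase, had 28.2, 24.7, 22.2, and 20.01 CPM in the *TOS8* libraries, against 3.17 to 18.7 CPM in the others (median 5.44, log2 fold-change 1.74, SE 0.13, adjusted p = 1.08e-09). The groups did not overlap, which the rule for naming *FDH1* required, and the *SFL1* libraries came closest. *ERO1*, the thiol oxidase of disulfide formation in the endoplasmic reticulum, had 225, 190, 217, and 212 CPM, against 68.8 to 181 CPM (log2 fold-change 0.90). *DIA1* (0.89), named for invasive growth, had 97.2 to 124 CPM in the *TOS8* libraries and 31.8 to 88.0 CPM in the others.

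Other members were also higher. *YML131W*, an oxidoreductase-like ORF, had 419, 404, 419, and 377 CPM in the *TOS8* libraries, against 173 to 319 CPM in the others (median 243, log2 fold-change 0.81, SE 0.07). The 3 nearly identical paralogs of the Hsp31 family, *HSP32* (0.85), *HSP33* (0.87), and *SNO4* (0.87), rose alike, and their reads cannot be told apart fully. *HSP33* had 24.4, 23.0, 25.5, and 19.97 CPM, against 9.39 to 18.4 CPM. *RPN12*, a proteasome subunit, rose little (155 to 171 CPM against 132 to 150 CPM, log2 fold-change 0.19). Its libraries did not overlap, which the rule for naming it required. *PHO89*, a sodium-phosphate cotransporter chosen after its values were seen, gave 1.15 with overlapping libraries (52.7 to 96.3 CPM against 17.8 to 64.6 CPM).

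Other lists showed few calls. Of 8 thiamine and vitamin B6 genes, *SNZ3* (0.26) and *SNO2* (0.43) were higher. The flocculin *FLO10* was higher (0.82, adjusted p = 1.75e-06), with 73.2 to 105 CPM in the *TOS8* libraries, a range that the *SAN1* and *ROF1* libraries reached (up to 99.4 CPM). The iron reductase *FRE2* was lower (−0.49), as were *PAU24* of 3 seripauperins (−0.71) and *ARR3* of 3 arsenic genes (−0.45). The call of *PAU24* was lost when the 14 near-identical *PAU* ORFs were summed to a single row (−0.06, adjusted p = 0.568). Of 5 aryl-alcohol dehydrogenases, *AAD4* was higher (0.21), and of 3 genes for sulfur compounds *MMP1*, an *S*-methylmethionine permease, was higher (0.53). The 3 enolase-related genes did not pass the test one by one (0.18 to 0.40), and their summed row did (0.21, adjusted p = 0.00365). *HMLALPHA2*, at the silent cassette, was higher (46.7 to 51.9 CPM against 35.9 to 49.99 CPM, log2 fold-change 0.29). It is identical to *MATALPHA2*, so its reads cannot be placed on the cassette. *HMLALPHA1* of the same cassette had no more than 4 counts in any library. *HMRA2* was at 43.7 to 47.8 CPM in the *TOS8* libraries and 29.5 to 45.7 CPM in the others.

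Factors that silence or bind chromosome ends lie mostly outside the window, and 35 of the 36 on a list of them were tested. In the *TOS8* strain 11 were lower (31.4%, against 23.7% of all ORFs) and 7 higher (20%, against 24.5%), with a median log2 fold-change of −0.08. *SIR2*, the histone deacetylase of silent chromatin, had the largest change. It averaged 39.6 ± 1.96 CPM in the *TOS8* strain, against 72.5 ± 5.39 in *SFL1*, 63.7 ± 5.64 in *HEK2*, 63.8 ± 4.54 in *SAN1*, and 52.5 ± 3.43 in *ROF1* (SD, n = 4 each), a log2 fold-change of −0.65 (adjusted p = 1.93e-08). *SIR4* (0.22) and *SIR1* (0.27) were higher, *SIR3* (−0.08, adjusted p = 0.319) did not pass the test, *TUP1* was lower (−0.29), and *PNC1*, the nicotinamidase, was higher (0.43). Their part in the differences of members was not tested.

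The second comparison set the mean of the *SFL1* and *HEK2* strains against the mean of the *SAN1* and *ROF1* strains. Members were more often higher in the *SFL1* and *HEK2* strains than lower, and a vitamin group went the other way. Of the 179 members, 36 were higher (20.1%, against 11.8% of all ORFs) and 18 were lower (10.1%, against 11.7%), so 54 differed (30.2%, against 23.5%). The median log2 fold-change was 0.09, against 8e-04 over all ORFs. Within 10 kb of an end 17 of 71 members were higher and 1 was lower, and from 10 to 20 kb 19 of 108 were higher and 17 lower. Of the 36 higher members, 30 were also lower in the *TOS8* strain in the first comparison, and 0 of the 18 lower members were. The mean that *TOS8* was set against there includes the *SFL1* and *HEK2* strains.

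All 8 thiamine and vitamin B6 genes were lower in the *SFL1* and *HEK2* strains, with log2 fold-changes of −0.65 to −0.45 (median −0.55). These genes, of the *THI5* family of thiamine precursor synthesis and of the *SNZ* and *SNO* pairs of pyridoxine synthesis, lie at 10916 to 17053 bp from 4 ends and are near copies of each other within each family. *THI12* had 12.0, 11.2, 14.98, and 13.5 CPM in the *SFL1* libraries and 10.6, 11.8, 8.38, and 13.3 CPM in the *HEK2* libraries, against 20.1, 17.0, 19.3, and 20.4 CPM in the *SAN1* libraries and 16.04, 20.9, 18.9, and 15.2 CPM in the *ROF1* libraries (log2 fold-change −0.60, SE 0.09, adjusted p = 2.82e-05). *SNZ3* had 15.4 to 20.7 CPM in the *SFL1* and *HEK2* libraries, against 23.9 to 32.0 CPM in the *SAN1* and *ROF1* libraries (−0.58), and *SNO2* had 5.53 to 7.38 CPM, against 7.97 to 12.7 CPM (−0.56). These 3 were named by a rule that requires no overlap between the pairs of strains. The libraries of *THI5*, *THI11*, *THI13*, *SNZ2*, and *SNO3* did overlap.

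*FLO10*, a cell-surface flocculin, gave the largest change. It had 24.5, 26.6, 32.8, and 30.5 CPM in the *SFL1* libraries and 30.7, 32.6, 36.6, and 40.1 CPM in the *HEK2* libraries, against 54.4, 89.8, 63.8, and 62.2 CPM in the *SAN1* libraries and 80.9, 99.4, 98.6, and 69.8 CPM in the *ROF1* libraries (log2 fold-change −1.28, SE 0.10, adjusted p = 1.88e-08). *YML131W* (−0.49), *HSP32* (−0.52), and *HSP33* (−0.41) were also lower. *COX14* gave −0.15 (143.6 to 168.9 CPM against 170.2 to 191.8 CPM, adjusted p = 0.0079), and this call was lost with any of 14 libraries left out.

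The sugar genes were higher, in 5 of 6 cases. *HXT17* had 166.3 to 197 CPM in the *SFL1* and *HEK2* libraries, against 91.1 to 121 CPM in the *SAN1* and *ROF1* libraries (log2 fold-change 0.79, SE 0.06, adjusted p = 7.65e-09), and *HXT16* had 31.8 to 42.4 CPM, against 22.0 to 28.3 CPM (0.59). *HXK1* had 4508, 4512, 4804, and 5548 CPM in the *SFL1* libraries and 3874, 3832, 4245, and 4627 CPM in the *HEK2* libraries, against 2550.0, 3100.0, 3335, and 2214 CPM in the *SAN1* libraries and 3002, 2580.0, 2808, and 3730 CPM in the *ROF1* libraries (0.62, SE 0.09, adjusted p = 2.59e-05). *YFR052C-A* (0.63) overlaps *HXK1* on the same strand and cannot be read apart from it. *IRC7* had 20.3 to 30.0 CPM, against 9.18 to 19.3 CPM (0.88). Of 10 *COS* genes 6 were higher (60%, against 11.8% of all ORFs, 0.15 to 0.29), with near-identical copies counted separately. The summed row of *COS1* to *COS4* gave 0.20, and that of *COS5* and *COS7* gave 0.24. Of 9 maltose genes 3 were higher, and 0 of 8 *YRF1* genes passed the test (0.06 to 0.14).

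**Figure D5:**
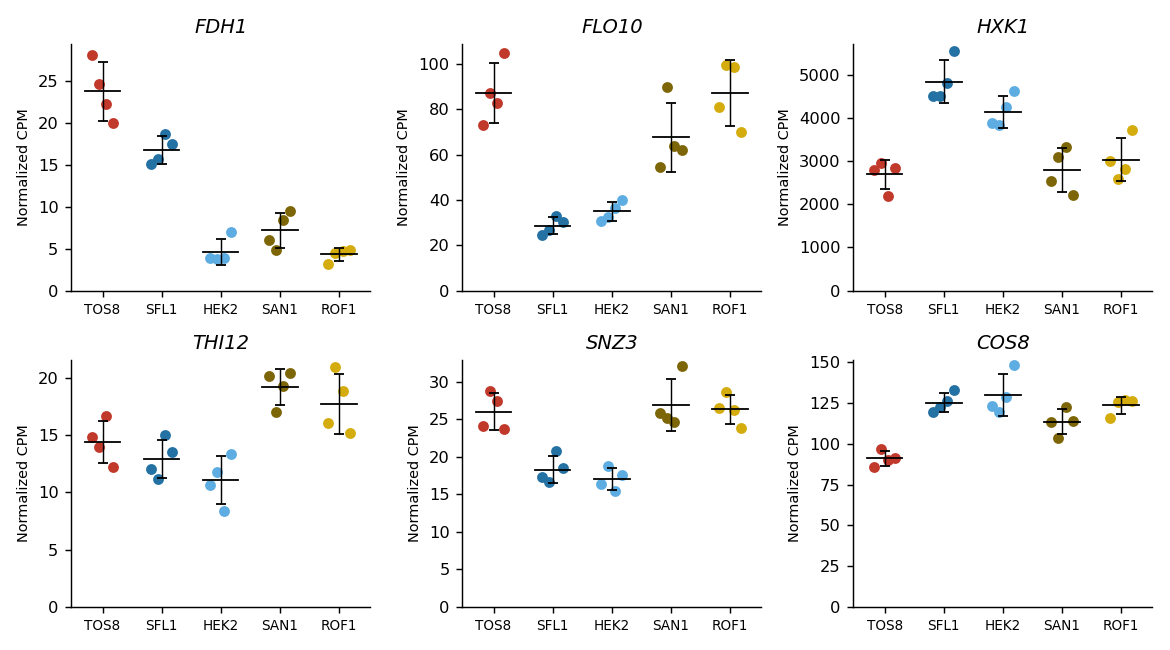
Normalized CPM in each library for *FDH1*, *FLO10*, *HXK1*, *THI12*, *SNZ3*, and *COS8* by strain. Points are libraries, and lines and bars give the mean ± SD (n = 4). *FDH1* is high in the *TOS8* and *SFL1* strains, and *FLO10*, *THI12*, and *SNZ3* are lower in the *SFL1* and *HEK2* strains than in the *SAN1* and *ROF1* strains.

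Between the *SFL1* and *HEK2* strains 9 members differed (5.03%, against 4.31% of all ORFs). In the *SFL1* strain 5 were higher (2.79%, against 0.988%) and 4 were lower (2.23%, against 3.33%), and the median log2 fold-change was −0.03, against 0.006 over all ORFs. *FDH1* had 15.1, 15.7, 18.7, and 17.5 CPM in the *SFL1* libraries, against 3.84, 3.77, 3.86, and 6.93 CPM in the *HEK2* libraries (log2 fold-change 1.81, SE 0.18, adjusted p = 9.91e-07). *SEO1*, a putative permease, had 85.8, 90.7, 99.8, and 98.7 CPM, against 48.0, 52.6, 50.6, and 54.2 CPM (0.87, SE 0.07, adjusted p = 2.12e-08). In both genes every *SFL1* library lay above every *HEK2* library, which the rule for naming them required. *CSS3* (0.84), *PAU12* (0.80), and *YAL066W* (0.59) were also higher. *YNR071C* (−0.44, adjusted p = 0.00964), *YHR219W* (−0.42, adjusted p = 0.00798), and *SRY1*, a hydroxyaspartate dehydratase (−0.41, adjusted p = 0.00843), were lower. These last 3 lay just past the threshold. The remaining lower member, on the right end of chromosome IX, is not named because its libraries overlapped. Summed over near-identical ORFs, neither the *PAU* row that holds *PAU12* (14 ORFs, 0.25, adjusted p = 0.104) nor the Y′ row that holds *YHR219W* (32 ORFs, −0.25, adjusted p = 0.0516) passed the test. The likelihood ratio test called 18 members and DESeq2 12. The count of 9 was 5 without *SFL1* replicate 1 or *HEK2* replicate 1, and 4 without *SFL1* replicate 2 or *HEK2* replicate 2.

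Between the *SAN1* and *ROF1* strains 0 of 179 members differed in edgeR's quasi-likelihood test (against 0.295% of all ORFs), and 17 had an unadjusted p under 0.05 (9.5%, against 19.4% of all ORFs). The median log2 fold-change was 0.04, against −0.0026 over all ORFs, and the largest single difference was that of *FDH1* (0.66). The likelihood ratio test called 2 members, *SEO1* and the alcohol dehydrogenase *ADH6*. DESeq2 called 4, these and the lysine biosynthesis gene *LYS1* and *SRY1*, all higher in the *SAN1* strain. *SEO1* had 89.8, 77.0, 84.0, and 83.0 CPM in the *SAN1* libraries, against 64.7, 72.5, 69.8, and 64.9 CPM in the *ROF1* libraries (0.29, SE 0.07, adjusted p = 0.0231).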

How the data were processed

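The authors mapped paired reads by Bowtie2 (version 2.1.0) to R64 of S288c, extended with ncRNAs and with genes absent from S288c, and deposited raw counts of read pairs per feature from featureCounts (version 1.4.0), without normalization or a filter on mapping quality. A batch or extraction date was not given in the sources used here. Features with names beginning with Y were taken as ORFs. ORFs whose median reached 1 CPM were fitted with edgeR (version 4.0.16, R 4.3.3) with TMM factors within ORFs, a mean per strain over all 20 libraries, and the quasi-likelihood test at an FDR below 0.01. Values in CPM are on TMM-scaled ORF totals, with exceptions. The median CPM that sets the limit and classes of level is on ORF totals without TMM. So are the CPM of mating-type genes, other than those of *HMLALPHA2* in the *TOS8* contrast. SE is the log2 fold-change over the root of F. Between any 2 replicates the variance over ORFs was at least 5.23 times that of counting, so none was a repeat of another. Depth was 6027147 to 35027485 counts per library. On simulated counts for the *TOS8* contrast over 5772 ORFs, 99 of 100 changes of 2-fold were recovered with 3 false calls. In the data, 4 of 179 members passed the FDR with a change of more than 2-fold (2.23%, against 1.7% of all ORFs). The recovery of 2-fold changes therefore does not speak for most changes of members, which were smaller. Summing of copies and the splits by shared sequence were chosen after seeing the data. Copies were found by nucleotide alignment of ORFs in the reference, and 5868 ORFs have the same coordinates in RefSeq.

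The members and gene lists were chosen with earlier results of these data known. Named genes were up to 8 rises and 8 falls without overlap between groups for *TOS8*, up to 5 each for the other contrasts, the 5 members of highest CPM per kb, the 3 of highest expression not past the 5-strain test, and any gene of a list. *IRC7* in the *TOS8* contrast, *YML131W*, *HSP32*, and *HSP33* in the second contrast, *SEO1* between *SAN1* and *ROF1*, *ADH6*, *LYS1*, *HMLALPHA2*, and *PHO89* were added to these with their values known. Alternatives were DESeq2 (version 1.42.0), a likelihood ratio test, TMM over all features, RLE factors, other filters, the replicate number as a block, only the libraries compared, the outer 10 kb, and each library left out. Samples of the same number did not deviate together throughout, so the number was not used in the main fit.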

Additional observations from a re-analysis of the deposited data

Results flagged for a closer look

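Among the named genes, 7 groups of 4 libraries held a library set apart from the other 3 by Dixon's criterion. These were 4.24% of the groups examined. The nominal rate of the criterion, 1 in 20, is not a yardstick here. The groups share libraries, and many of the genes were named by a rule on overlap. Whether chance accounts for the flags was not tested. In the *HEK2* strain, replicate 4 was apart for *FDH1* (6.93 CPM, others 3.77 to 3.86), *YML131W* (259 CPM, others 181 to 192), and *MSC1* (1249 CPM, others 694.6 to 761.4). In the *SAN1* strain, replicate 4 was apart for *SNZ3* (32.03 CPM) and *SRY1* (67.25 CPM). *SRY1* was also apart in replicate 4 of the *TOS8* strain (31.12 CPM), and *RPN12* in replicate 4 of the *ROF1* strain (140.1 CPM). All 7 values came from libraries of replicate 4 (4 libraries), and the cause was not tested.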

How the results depend on the processing

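No call reversed. Counts and shares of members differing stayed within 1.5 times for the *TOS8* comparison and for *SFL1* and *HEK2* minus *SAN1* and *ROF1*. Within 10 kb the *TOS8* median was −0.36, against −0.20 for all members, and 74.6% differed, against 59.8%. The *SFL1* minus *HEK2* median of −0.03 was 0.01 among the 105 members with no near copy. Between *SFL1* and *HEK2* the count was 18 with the likelihood ratio test and 2.82% of members within 10 kb, and between *SAN1* and *ROF1* it was 2 with the likelihood ratio test and 4 with DESeq2. Leaving out each library gave 85 (without *TOS8* replicate 3) to 107 members for *TOS8*, 46 to 59 for *SFL1* and *HEK2* minus *SAN1* and *ROF1*, 4 (without *SFL1* replicate 2) to 11 for *SFL1* minus *HEK2*, 0 for *SAN1* minus *ROF1*, and 108 to 123 across the 5 strains. The member medians then ranged from −0.24 to −0.18, 0.07 to 0.10, −0.05 to −0.0037, and 0.02 to 0.06 in the same order of contrasts. Of 39 results for named genes, 31 kept their side of the threshold throughout. The 62 lost calls were 14 of *COX14* and 48 of *SFL1* minus *HEK2*. With the replicate number as a block, 110, 56, 13, 0, and 128 members differed. The same-number correlation averaged 0.11 (−0.37 to 0.44, over 0.1 in 22 of 40 pairs), and 8 of 20 libraries correlated best with their own number. Within single strains the median level per length was 5.36 (*TOS8*) and 7.30 (*HEK2*) CPM per kb at 0 to 5 kb, 9.06 (*TOS8*), 12.3 (*SFL1*), and 12.2 (*HEK2*) at 5 to 10 kb, 16.2 (*TOS8*), 15.1 (*SFL1*), and 15.9 (*HEK2*) at 10 to 15 kb, and 22.1 (*SFL1*) and 21.4 (*HEK2*) at 15 to 20 kb. The split by protein identity was not run, and a split by nucleotide identity, chosen after seeing the data, stands in its place. At the depth of these libraries, members near 1 CPM rest on few counts.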

Other observations

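Other features near the ends, mostly ncRNAs, were fitted apart from the ORFs. In the *TOS8* strain 6 of 110 within 10 kb of an end were lower (5.45%) and 4 higher (3.64%). At 10 to 20 kb 16 of 141 were lower (11.3%) and 7 higher (4.96%). At 20 to 40 kb 29 of 246 were lower (11.8%) and 14 higher (5.69%). Of all 4007 tested, 182 were lower (4.54%) and 220 higher (5.49%). The share of lower features was thus not largest in the outer 10 kb, unlike that of ORFs.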
